A study of Mus musculus with 8 samples.

Results

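The genes described here encode the proteins of the mitochondrial ribosome. They were taken as every row of the deposited gene table whose name begins with Mrpl or Mrps followed by a digit, which gave 78 of 13130 genes. The name and not the level set the choice, and all 78 passed the filter of a mean of at least 0.5 FPKM, which left 13004 genes to test. FPKM counts sequenced fragments per kilobase and corrects for library size. The libraries came from the brains of C57BL/6 mice aged 12 weeks, from the orbital frontal cortex, which takes part in updating choices when rewards change. The 4 knockdown libraries carried short hairpin RNA directed at circHomer1/Homer1b, and the 4 control libraries a scrambled hairpin. circHomer1 is a circular RNA made from exons of Homer1, and Homer1b is a long form of its mRNA. Whether the hairpins in a given library were aimed at one or both is not in the labels, and neither is their delivery, the cells they reached, or whether every library came from its own animal. The p-values therefore measure the spread between libraries, which may be technical.

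Mitochondrial ribosomes translate the few proteins that the mitochondrial genome still encodes, all of them core subunits of the respiratory chain and ATP synthase. Their rRNAs are mitochondrial, but every ribosomal protein is made from a nuclear gene, translated in the cytosol and imported. Some of these proteins descend from bacterial ribosomal proteins, and others were added to the ribosome during the evolution of mitochondria. Of the 78 genes, 51 encode proteins of the large subunit and 26 of the small subunit. Mrps30 and Mrps18a carry small-subunit names but belong to the large subunit and were counted there. Mrps36 is no ribosomal subunit despite its name: its product is part of the alpha-ketoglutarate dehydrogenase complex, and its level was kept as a row of the group. Among large-subunit genes 30 have bacterial homologs and 21 are specific to mitochondria; among small-subunit genes the numbers were 16 and 10.

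The genes lie on 17 chromosomes, 11 of them on chromosome 11, and many share a start region with another gene. A protein-coding gene on the other strand started within 1000 bases of the member's start in 33 of 78 genes (42.3%), against 15.3% of all genes tested. Mrpl46 and Mrps11 form such a pair within the group, each starting inside the other, with 412 bases between the starts. Of the 78 genes, 69 had a promoter in the RefSeq table (GRCm38.p6), running from 250 bases before to 50 bases after the start. Motifs known from promoters of genes for mitochondrial proteins were searched on both strands in these windows. The core of the motif bound by nuclear respiratory factor NRF1 (GCGCATGC, nearly a palindrome, so neighbouring matches can overlap) was in 8 of 69 promoters (11.6%), against 5.45% of the 10050 promoters of all tested genes. An ETS-family core (CCGGAAG) was in 24 (34.8%, against 17.6%), and a YY1 core (AAGATGGCG) in 8 (11.6%, against 3.15%). At least 1 of these was in 34 promoters (49.3%, against 24.2%). The median GC content of the windows was 58.3% for the group and 61.3% for all. A match describes letters only and was not tied to binding. Mrpl14, Mrpl10 and Mrps26 were among the 8 members higher in the knockdown group at an unadjusted p under 0.05 (limma). Mrpl53 and Mrpl42 were among the 4 lower members with the smallest p. These 5 genes did not all have the largest differences, as Mrps6 (log2 difference 0.22) exceeded Mrps26 (0.15) and Mrpl10 (0.12). The promoters of these 5 genes are given as examples from both directions of the group difference described further on. They lie at chr17:45686099-45686398, plus strand (Mrpl14), chr11:97041332-97041631, plus strand (Mrpl10), chr2:130563507-130563806, plus strand (Mrps26), chr6:83108858-83109157, plus strand (Mrpl53) and chr10:95501900-95502199, minus strand (Mrpl42), all on GRCm38, and are written 5′ to 3′ with motif matches in capitals.
Mrpl14: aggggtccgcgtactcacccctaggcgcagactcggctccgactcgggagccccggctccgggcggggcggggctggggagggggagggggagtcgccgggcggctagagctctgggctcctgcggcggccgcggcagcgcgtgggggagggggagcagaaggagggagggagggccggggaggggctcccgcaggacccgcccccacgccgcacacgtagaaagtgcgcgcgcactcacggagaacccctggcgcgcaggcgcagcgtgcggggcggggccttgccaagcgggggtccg
Mrpl10: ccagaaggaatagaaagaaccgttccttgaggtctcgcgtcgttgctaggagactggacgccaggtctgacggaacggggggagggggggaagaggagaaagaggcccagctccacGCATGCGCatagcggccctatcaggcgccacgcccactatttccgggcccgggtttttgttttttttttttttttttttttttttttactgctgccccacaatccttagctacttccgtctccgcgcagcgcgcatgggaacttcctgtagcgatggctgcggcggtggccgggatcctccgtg
Mrps26: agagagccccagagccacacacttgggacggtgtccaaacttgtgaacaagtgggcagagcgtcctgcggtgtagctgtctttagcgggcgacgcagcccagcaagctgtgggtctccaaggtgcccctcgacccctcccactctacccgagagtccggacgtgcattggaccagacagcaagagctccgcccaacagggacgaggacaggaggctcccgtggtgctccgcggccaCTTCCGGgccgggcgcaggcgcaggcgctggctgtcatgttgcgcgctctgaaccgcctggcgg
Mrpl53: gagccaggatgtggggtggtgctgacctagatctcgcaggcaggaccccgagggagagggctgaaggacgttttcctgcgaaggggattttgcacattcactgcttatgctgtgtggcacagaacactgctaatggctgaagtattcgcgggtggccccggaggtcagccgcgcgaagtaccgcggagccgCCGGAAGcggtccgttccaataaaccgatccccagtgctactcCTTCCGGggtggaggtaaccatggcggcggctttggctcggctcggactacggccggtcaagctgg
Mrpl42: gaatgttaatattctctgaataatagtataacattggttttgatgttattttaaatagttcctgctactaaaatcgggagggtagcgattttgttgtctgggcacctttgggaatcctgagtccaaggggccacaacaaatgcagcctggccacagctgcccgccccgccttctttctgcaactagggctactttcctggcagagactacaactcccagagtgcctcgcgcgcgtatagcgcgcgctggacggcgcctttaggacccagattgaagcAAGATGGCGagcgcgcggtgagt
Mrpl14 had no match in its window, which was the most GC-rich of these at 78% GC. Counted from the start, Mrpl10 had an NRF1 core at -134, Mrps26 an ETS core at -14, Mrpl53 a pair of ETS cores at -59 and -16, and Mrpl42 a YY1 core at 27. Mrpl41, Mrps16 and Mrps6 had none of the motifs, so genes with higher levels were found with and without them.

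Homer1, the targeted gene, read 23.5, 26.3, 21.3 and 18.9 FPKM in the controls and 18.9, 16.5, 16.6 and 19.3 FPKM in the knockdown libraries. The means were 22.5 ± 3.13 and 17.8 ± 1.49 (SD, n = 4 each). The groups overlapped, and on the log2 scale the difference was -0.31 ± 0.10 (SE). It did not pass the threshold (limma, Benjamini-Hochberg adjusted p = 0.273; exact two-sided permutation p = 0.0857). This gene value does not measure circHomer1 or the Homer1b form on its own. Summed FPKM ran from 214316 to 224323 over the 8 libraries, and read depth is unknown. Genes used as markers of striatal projection neurons, cells that cortex should not hold, were present in every library. Their sum over 12 genes lay between 199.1 and 836.0 FPKM. The sums were 836.0, 519.8, 736.9 and 250.4 in the controls and 230.9, 409.7, 507.5 and 199.1 in the knockdown libraries. Whether these genes were expressed by striatal or by cortical cells was not tested. In bulk tissue, fewer cells of a type and less RNA per cell cannot be told apart.

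The mitochondrial ribosomal protein genes were a little higher in the knockdown libraries as a group, and no single gene passed the threshold. The log2 difference was above 0 in 59 of 78 genes (75.6%) and in 54.9% of all genes tested. Its median was 0.054 over the group and 0.015 over all genes, and the group ran from -0.16 to 0.27. No member had an adjusted p under 0.05, nor did any other gene (0.0% of 13004 called; limma, smallest Benjamini-Hochberg adjusted p = 0.266). At an unadjusted p under 0.05, 8 members were higher (10.3%), against a background of 9.1%, and 0 were lower, against 5.07%. The 2 groups of libraries did not overlap in 7 members, all higher in the knockdown group (8.97%), against 5.93% of all genes, and in 0 members with lower levels, against 3.22%. The share of members called higher was thus near the background. Without control replicate 1 the 8 became 4, and without control replicate 2 they became 5. In either direction together, 14.2% of all genes had an unadjusted p under 0.05. Control levels varied little, with a median coefficient of variation of 5.27% against 7.57% over all genes, and 6.09% against 9.63% in the knockdown group.

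**Figure D1:**
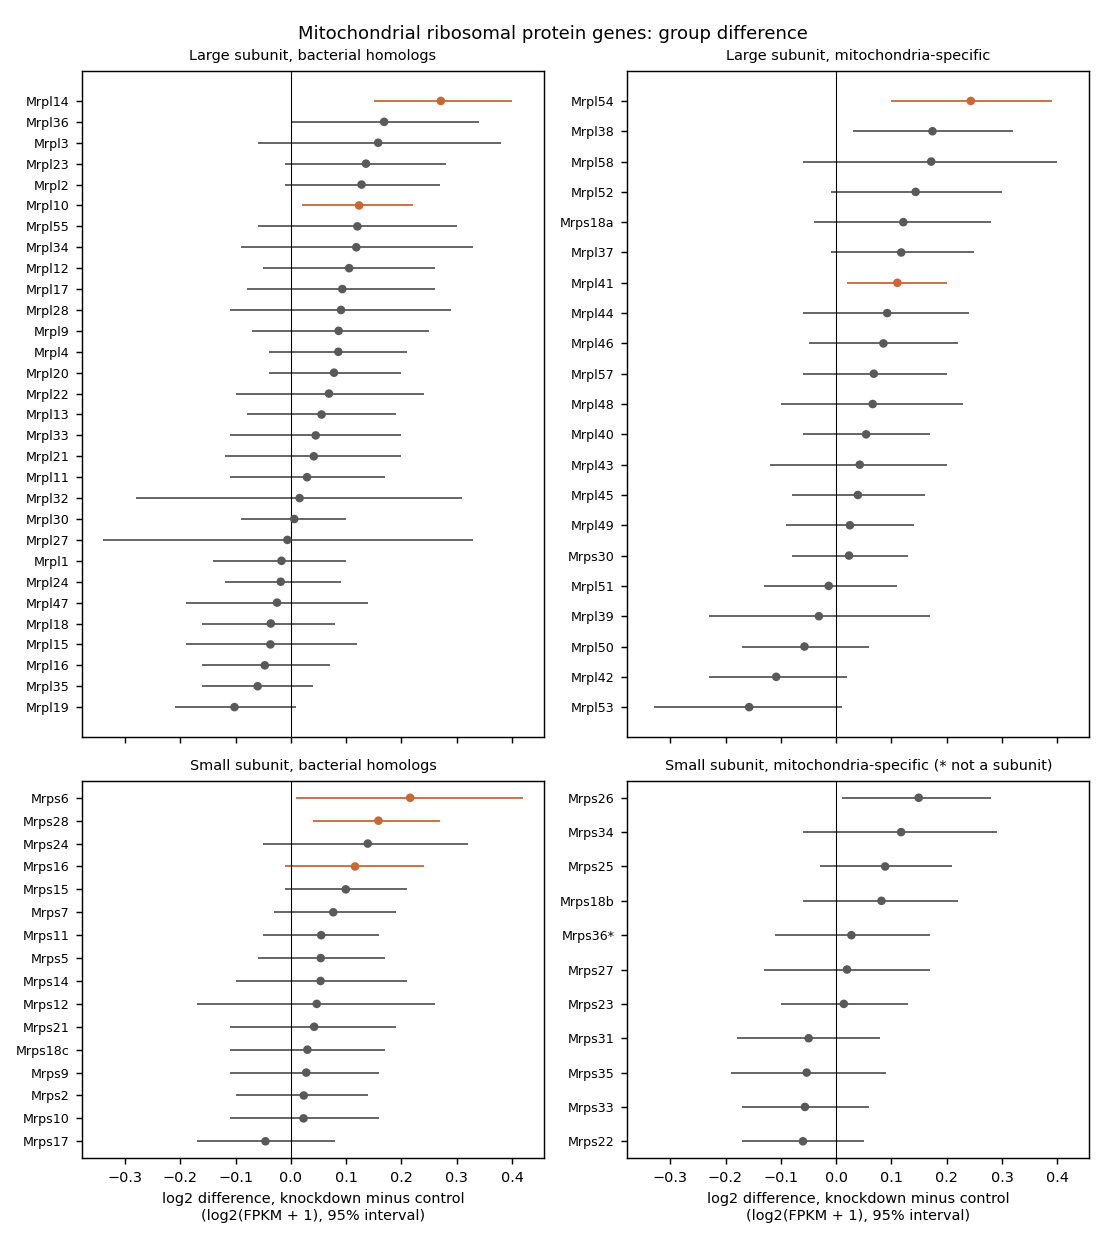
Log2 difference of each of the 78 genes (horizontal axis, knockdown minus control on log2(FPKM + 1), points with 95% intervals from limma, n = 4 per group), in panels by subunit and ancestry. Orange marks the 7 genes whose groups do not overlap, and 59 of 78 points lie to the right of 0.

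Summed over the 78 genes, the libraries read 853.6, 874.9, 858.9 and 891.6 FPKM in the controls and 890.2, 909.8, 888.0 and 959.1 FPKM in the knockdown group. The means were 869.7 ± 17.1 and 911.8 ± 33.0 (SD, n = 4 each). Knockdown replicate 4 was the highest, and control replicate 4 lay above knockdown replicates 1 and 3, so the groups overlapped. The mean sum was 4.83% higher in the knockdown group, against 1.64% for the sum over all genes tested. Knockdown replicate 4 also had the highest sum over all genes (224323 FPKM), of which the members made up 0.428%. The number of genes above their own mean over the 8 libraries was 23, 34, 21 and 40 in the controls and 37, 45, 40 and 61 in the knockdown libraries. Control replicate 4 and knockdown replicate 4, which had the highest counts of their groups, also had the lowest striatal marker sums of their groups. Knockdown replicate 1 went the other way. Its striatal sum of 230.9 FPKM was below that of control replicate 4 (250.4 FPKM), and its count of 37 was the lowest of the knockdown group. With the striatal marker level as a covariate, 48 members were higher, the median was 0.028 (0.017 over all genes), and 4 members were higher at an unadjusted p under 0.05 (5.13%, against 5.02% of all genes in that fit) and 2 lower (2.56%, against 2.82%). Without knockdown replicate 4 the median was 0.040, and without control replicate 4 it was 0.073.

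The members are short genes, with a median exon length of 2394 bases against 4532 over all tested genes. Of the 8246 other genes between the 5th and 95th percentiles of the group's length and GC content, 60.1% had a difference above 0. Their median was 0.028. Over all genes tested the share was 54.9% and the median 0.015. These bounds are wide and hold most of the tested genes. Whether length and GC content account for the group difference was not tested. After a trend with GC content and length was removed from each library, 48 of 78 members were higher and the median was 0.013, against 0.005 over all genes. Then 1 member was higher at an unadjusted p under 0.05 (1.28%, against 5.06% of all genes in that fit) and 2 were lower (2.56%, against 4.34%). The member higher was Mrpl14, whose log2 difference went from 0.27 to 0.13, and the other 7 of the 8 were no longer called. Those lower were Mrpl53 (-0.25) and Mrpl18 (-0.12). The median of the cytosolic ribosomal protein genes, also short, went from 0.117 to 0.073 in that fit, and their number higher at an unadjusted p under 0.05 from 32 to 18 of 81.

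**Figure D2:**
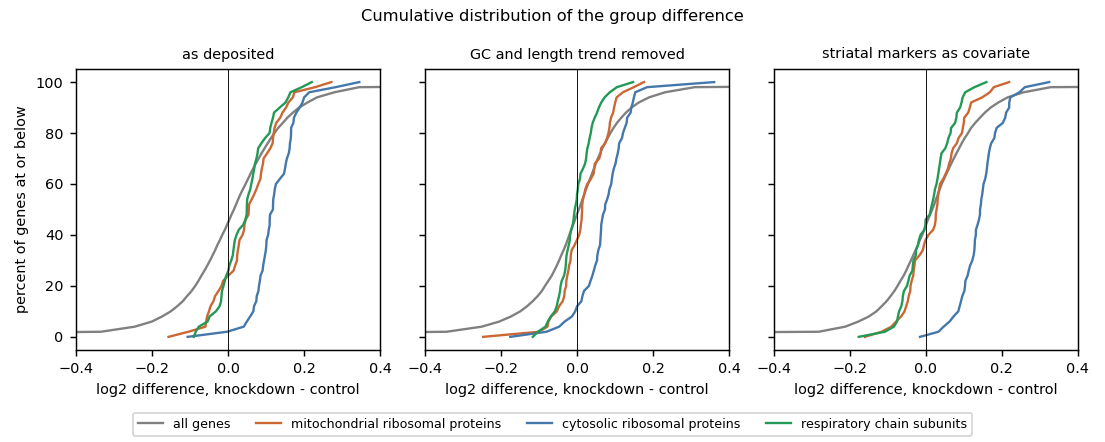
Cumulative percent of genes (vertical axis) at or below each log2 difference between knockdown and control (horizontal axis, cut at -0.4 and 0.4), for all tested genes and 3 gene groups, in the values as deposited, after removal of a GC and length trend, and with striatal marker level as a covariate. The curve of the mitochondrial ribosomal proteins lies to the right of all genes at its median in the first panel (0.054 against 0.015) and close to it in the second (0.013 against 0.005).

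Among large-subunit genes, 37 of 51 were higher, with a median log2 difference of 0.066. Those with bacterial homologs were higher in 21 of 30 (median 0.062), and those specific to mitochondria in 16 of 21 (median 0.066). Mrpl14 had the largest difference of all members. Its protein (chromosome 17, 45686322 to 45698495, plus strand, GRCm38) sits at the face that meets the small subunit, where in human cells an anti-association factor binds during assembly. Mrpl14 read 5.50, 5.99, 5.62 and 5.91 FPKM in the controls and 7.22, 7.38, 6.54 and 7.50 FPKM in the knockdown libraries. Every knockdown library lay above every control. The means were 5.76 ± 0.231 and 7.16 ± 0.430 FPKM (SD, n = 4 each), and the difference on the log2 scale was 0.27 ± 0.05 (SE; limma, Benjamini-Hochberg adjusted p = 0.266). Its listed transcript, Mrpl14-201, had the same difference of 0.27. That transcript made up 89.0% of the gene value in controls and 88.7% in the knockdown group, so it is no separate measurement. The exons of Mrpl14 overlap those of Tmem63b on the other strand, and whether strand was used in quantification is not given in the sources used here. Tmem63b itself read 24.1 ± 1.40 against 26.3 ± 1.70 FPKM, a log2 difference of 0.12.

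The ribosomal stalk, which recruits elongation factors, was represented by 4 genes. Mrpl10, which anchors the stalk to the ribosome, read 19.3, 20.9, 20.3 and 20.5 FPKM in the controls and 21.7, 22.9, 21.4 and 22.7 FPKM in the knockdown libraries, with no overlap. The log2 difference was 0.12 ± 0.04 (SE; limma, adjusted p = 0.298), and 0.05 with the GC and length trend removed. Mrpl12, the protein repeated along the stalk, was higher on average (24.5 ± 0.846 against 26.6 ± 2.61 FPKM), but its groups overlapped and knockdown replicate 4 at 30.1 FPKM made up most of the gap. Mrpl11, at the stalk base, read 11.3 ± 0.537 against 11.6 ± 0.852 FPKM. Mrpl53, a mitochondria-specific protein of the stalk region, had the lowest difference of all members. Mrpl53 read 4.50, 4.30, 3.85 and 3.83 FPKM in the controls and 3.32, 3.67, 4.11 and 3.28 FPKM in the knockdown libraries. Knockdown replicate 3 lay within the controls, and the difference of -0.16 ± 0.08 (SE) did not pass (limma, adjusted p = 0.384). Its locus shares exon sequence with Gm42688 on the same strand, so reads may be split between them. Gm42688 read 5.07 ± 0.196 against 5.65 ± 0.464 FPKM, a log2 difference of 0.13. Whether reads were split differently in the groups was not tested. The transcript table listed no transcript for Mrpl53.

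Around the exit of the protein tunnel, 4 of 6 genes were higher, with a median of 0.054. Mrpl45, which ties the ribosome to the inner membrane where new proteins are inserted, read 12.3 ± 0.291 against 12.6 ± 0.810 FPKM. Mrpl17, at the same site, was among the 3 least abundant members, with 1.81, 2.37, 2.24 and 1.96 FPKM in the controls and 2.38, 2.49, 2.25 and 2.06 FPKM in the knockdown libraries. Its groups overlapped. Of the genes assigned here to the central protuberance, where the large subunit contacts tRNA and the small subunit, 4 of 4 were higher. Their median was 0.076. Mrpl38 led these with 10.3, 10.8, 12.0 and 12.7 FPKM in the controls and 12.8, 13.2, 12.6 and 13.4 FPKM in the knockdown libraries. Control replicate 4 lay above knockdown replicate 3. The difference of 0.17 ± 0.07 (SE; limma, adjusted p = 0.307) came from the portion of the gene value that no listed transcript accounts for, as described below. It was 0.08 with the GC and length trend removed. Mrpl40, Mrpl46 and Mrpl48 had differences of 0.05, 0.09 and 0.07. The assignment may be incomplete, as Mrpl18 (-0.04) and Mrpl27 (-0.01) were given no region.

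Mrpl54 and Mrpl41, both specific to mitochondria, had groups that did not overlap. Mrpl54 (chromosome 10, 81264713 to 81266934, minus strand) read 14.4, 15.2, 14.2 and 16.3 FPKM in the controls and 18.3, 19.4, 16.4 and 17.8 FPKM in the knockdown libraries. The lowest knockdown library and the highest control differed by little. The log2 difference was 0.24 ± 0.06 (SE; limma, adjusted p = 0.266). Apba3, whose start lies 26 bases away on the other strand, read 2.40 ± 0.381 against 2.64 ± 0.490 FPKM. Mrpl41, whose human homolog was also found to bind Bcl-2, was the most abundant member and the least variable, with a mean coefficient of variation within groups of 2.27%. Mrpl41 read 35.2, 35.7, 36.6 and 36.2 FPKM in the controls and 38.6, 39.6, 37.4 and 39.8 FPKM in the knockdown libraries. Its difference of 0.11 ± 0.04 (SE; limma, adjusted p = 0.298) was smaller than that of Mrpl54, with less spread. With the GC and length trend removed, Mrpl54 was at 0.09 and Mrpl41 at 0.01, and neither had an unadjusted p under 0.05.

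The other large-subunit genes went in both directions, and some that were level or lower are given first. Mrpl18, the second most abundant member, read 28.7, 28.8, 26.7 and 27.0 FPKM in the controls and 25.6, 27.1, 26.4 and 29.3 FPKM in the knockdown libraries. The highest and the lowest of these 8 values both belonged to the knockdown group. Mrpl19 had 5.51, 5.84, 5.75 and 6.09 FPKM in the controls and 5.63, 5.23, 5.20 and 5.28 FPKM in the knockdown libraries. Of these, knockdown replicate 1 alone lay within the control range, and the difference was -0.10 ± 0.05 (SE; limma, adjusted p = 0.380). Mrpl42 was at 7.75, 8.90, 8.12 and 9.01 FPKM in the controls and 7.56, 7.77, 7.71 and 7.95 FPKM in the knockdown libraries, which overlapped (-0.11 ± 0.06, SE; limma, adjusted p = 0.406). Mrpl35 was at 7.0, 6.98, 6.63 and 6.95 FPKM against 6.70, 6.46, 6.26 and 6.87 FPKM (-0.06 ± 0.05, SE; limma, adjusted p = 0.564), again with overlap. Mrpl15, one of the 3 least abundant members, was at 2.01, 2.13, 2.03 and 2.38 FPKM against 1.95, 2.30, 2.16 and 1.83 FPKM. Mrpl58, a peptidyl-tRNA hydrolase that rescues stalled mitochondrial ribosomes, was among the most variable members (12.1%) and read 6.13 ± 0.499 against 7.07 ± 1.13 FPKM. The widest spread within groups was in Mrpl32 (19.2%) and Mrpl27 (17.5%).

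**Figure D3:**
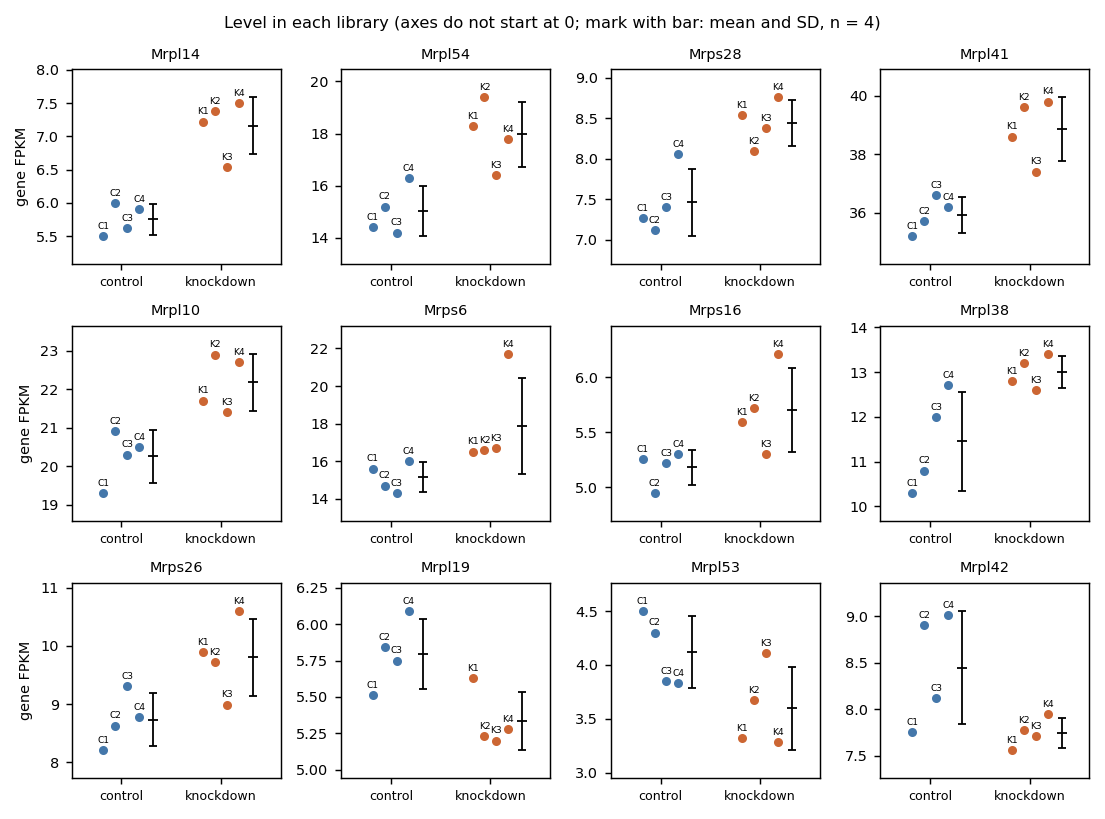
Gene FPKM (vertical axis, not starting at 0) of 12 members in each control (C1 to C4) and knockdown (K1 to K4) library, with the group mean and SD (n = 4). The groups do not overlap in the 7 genes from Mrpl14 to Mrps16. They overlap in Mrpl38, Mrps26, Mrpl19, Mrpl53 and Mrpl42.

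In the small subunit 21 of 26 genes were higher, with a median log2 difference of 0.050. The split by ancestry was 15 of 16 genes with bacterial homologs (median 0.054) and 6 of 10 specific to mitochondria (median 0.017), and the difference between these classes was not tested. Mrps28, a relative of bacterial ribosomal protein S1, read 7.27, 7.12, 7.40 and 8.06 FPKM in the controls and 8.54, 8.09, 8.38 and 8.76 FPKM in the knockdown libraries. The groups did not overlap, though control replicate 4 and knockdown replicate 2 were nearly equal. The log2 difference was 0.16 ± 0.05 (SE; limma, adjusted p = 0.274), and 0.06 with the GC and length trend removed. Mrps6, a protein of the platform of the small subunit, read 15.6, 14.7, 14.3 and 16 FPKM in the controls and 16.5, 16.6, 16.7 and 21.7 FPKM in the knockdown libraries. Without overlap, the other 3 knockdown libraries still lay just above the controls and knockdown replicate 4 far above them (0.22 ± 0.09, SE; limma, adjusted p = 0.337). Without knockdown replicate 4 the difference was 0.12. Slc5a3, a myo-inositol transporter gene that shares exon sequence with Mrps6 on the same strand, read 3.38 ± 0.625 against 3.35 ± 0.783 FPKM.

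Mrps16, in which mutations cause a human disorder of mitochondrial translation, read 5.26, 4.95, 5.22 and 5.30 FPKM in the controls and 5.59, 5.72, 5.30 and 6.21 FPKM in the knockdown libraries. Its groups did not overlap by less than the rounding shown here (0.12 ± 0.05, SE; limma, adjusted p = 0.373). Mrps26, specific to mitochondria, read 8.21, 8.63, 9.31 and 8.77 FPKM in the controls and 9.90, 9.72, 8.99 and 10.6 FPKM in the knockdown libraries. Knockdown replicate 3 lay below control replicate 3 (0.15 ± 0.06, SE; limma, adjusted p = 0.322; 0.10 with the GC and length trend removed). Mrps21 was the most abundant small-subunit gene, at 27.3, 25.1, 26.5 and 22.4 FPKM in the controls and 25.1, 26.7, 25 and 27.4 FPKM in the knockdown libraries. Mrps35 was the least abundant member, at 2.17, 2.26, 1.87 and 2.20 FPKM against 1.99, 1.85, 2.09 and 2.11 FPKM. Neither differed beyond the spread between libraries. Mrps12, a protein of the decoding centre that shares its start region with the mitochondrial seryl-tRNA synthetase gene Sars2, read 23.1 ± 2.14 against 24.0 ± 2.72 FPKM, while Sars2 read 2.63 ± 0.196 against 3.05 ± 0.255 FPKM (log2 difference 0.16; limma, adjusted p = 0.334). Mrps36, the dehydrogenase subunit, read 13.2 ± 1.09 against 13.4 ± 0.519 FPKM.

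Of the genes that share a start region with a member, 26 pairings had a measured partner. In 16 of these the partner's log2 difference, rounded to 2 decimals, was above 0 (median 0.05, range -0.23 to 0.28). Without rounding, 54.9% of all genes tested were above 0. Mrpl46 and Mrps11 each count as the partner of the other. The largest difference was that of Fau, which encodes a cytosolic ribosomal protein fused to a ubiquitin-like protein and starts 59 bases from Mrpl49. Fau read 109 ± 5.50 against 133 ± 18.6 FPKM, while Mrpl49 differed by 0.02 on the log2 scale. Mrpl46 and Mrps11, which overlap at their starts, differed by 0.09 and 0.05. Mrpl36 was at 0.17 and its partner Ndufs6, a complex I subunit gene, at 0.00.

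Levels between genes depend on how the gene value was made. In the 1580 genes with every annotated transcript listed, the FPKM of the transcripts weighted by their lengths and divided by the length of all exons equalled the gene value within a relative tolerance of 0.001 in 99.9% of values. In genes with unlisted transcripts the listed part was equal to the gene value in 7.46% of values, and otherwise a remainder belonged to no listed transcript. Among 69 members where this could be computed, listed transcripts made up a median of 92.6% of the gene value, at least 90% in 40 and under 50% in 5. Mrpl38 was one of these 5. Its listed part was 2.61 ± 0.464 against 2.62 ± 0.775 FPKM, and the remainder 8.83 ± 0.981 against 10.4 ± 0.864 FPKM. In Mrps34 the listed part was 1.07% of the gene value in controls and 4.89% in the knockdown group. By the sum of its transcripts Mrpl30 was the most abundant member, at 47.7 FPKM, although its gene value of 11.4 FPKM was the same as that of Mrpl11. The order of the members by gene FPKM is therefore an order per base of all annotated exons.

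**Figure D4:**
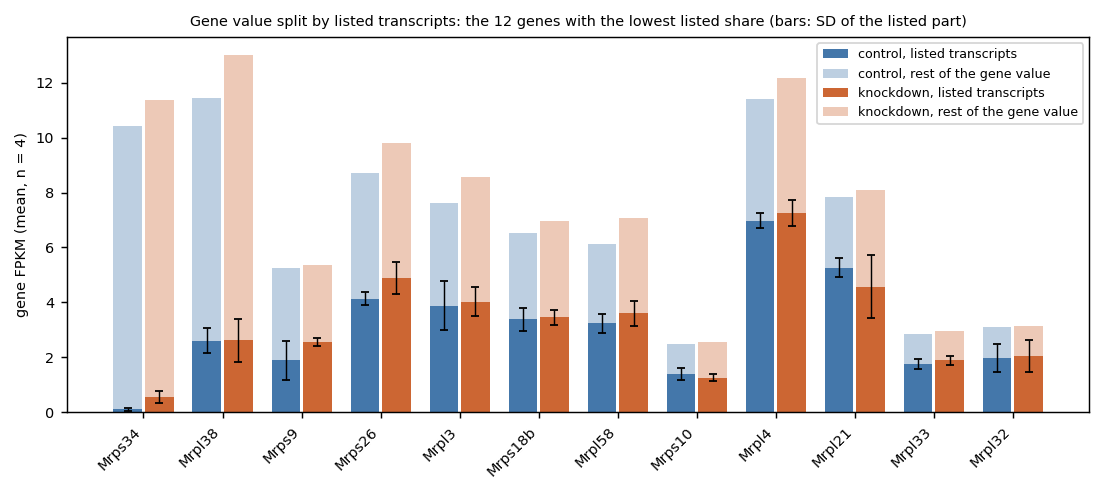
Mean gene FPKM (vertical axis, n = 4 per group) of the 12 members with the smallest share from listed transcripts, split into the listed part (dark, with its SD) and the remainder (light), in control and knockdown libraries. The remainder makes up nearly all of Mrps34 and most of Mrpl38.

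The transcript table listed 131 transcripts of the members, of which 130 were tested and 77 were higher in the knockdown group (median 0.042). None passed the threshold, as against 6 of all 23415 transcripts (0.0256%). At an unadjusted p under 0.05, 9 were higher (6.92%, background 4.2%) and 3 lower (2.31%, background 3.76%), where 7.96% of all transcripts were past it in either direction. The groups did not overlap in 7, all higher (5.38%, background 3.04%), and in 0 that were lower (background 2.66%). Mrps10 had the widest exchange between isoforms. Mrps10-201 read 5.12, 10.6, 8.44 and 4.50 FPKM in the controls and 1.6, 1.06, 6.3 and 0 FPKM in the knockdown libraries, the last listed at 0 (-1.64 ± 0.58, SE; limma, adjusted p = 0.587). Mrps10-204 went the other way, with 2.43, 0.800, 1.34 and 2.37 FPKM against 4.13, 4.10, 1.94 and 6.86 FPKM (0.91 ± 0.33, SE; limma, adjusted p = 0.587). Knockdown replicate 3 lay within the control range in both, and the gene value of Mrps10 differed by 0.02 only. Mrps34-201 read 0.214, 0.288, 0.110 and 0.394 FPKM in the controls and 1.81, 1.26, 0.573 and 1.39 FPKM in the knockdown libraries, without overlap (0.83 ± 0.18, SE; limma, adjusted p = 0.565). It is a minor form of a gene that shares exon sequence with Nme3 on the same strand, and Nme3 read 7.98 ± 0.303 against 9.81 ± 1.03 FPKM (log2 difference 0.26; limma, adjusted p = 0.266).

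The rest of the mitochondrial translation pathway was not shifted in the same way throughout, and none of its genes passed the threshold. Subunits whose names do not begin with Mrp were higher in 4 of 5 (median 0.050), led by Gadd45gip1 at 9.18 ± 0.517 against 10.2 ± 0.891 FPKM, with Chchd1 at 20.5 ± 1.42 against 21.3 ± 0.472 FPKM. Factors for assembly and rRNA modification were higher in 17 of 25 (median 0.037). Among them Ngrn, which binds the large mitochondrial rRNA, read 15.9 ± 0.586 against 17.8 ± 1.01 FPKM, and Fastkd2, an RNA-binding assembly factor, 2.94 ± 0.0791 against 2.65 ± 0.119 FPKM. Mitochondrial aminoacyl-tRNA synthetases were higher in 12 of 20 (60.0%, against 54.9% of all genes; median 0.045), and 4 of these had groups that did not overlap (20.0%, against 5.93%). Yars2, for tyrosine, read 3.47 ± 0.173 against 4.10 ± 0.195 FPKM, and Vars2, for valine, 3.43 ± 0.121 against 3.86 ± 0.0498 FPKM.

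Translation factors were divided, with 8 of 15 higher (median 0.008). Gfm1, the elongation factor that moves the ribosome along the mRNA, read 11.6, 12.0, 11.6 and 12.9 FPKM in the controls and 10.4, 10.7, 10.4 and 10.5 FPKM in the knockdown libraries. Every knockdown library lay below every control, a direction opposite to that of most ribosomal proteins (-0.18 ± 0.05, SE; limma, adjusted p = 0.266). Tsfm, which reloads elongation factor Tu, read 4.23 ± 0.0918 against 4.74 ± 0.387 FPKM. Genes of mitochondrial transcription and genome maintenance were higher in 6 of 20 (median -0.023). Tfb2m, a transcription initiation factor, read 10.1 ± 0.728 against 8.74 ± 0.784 FPKM, and Ppargc1b, a coactivator of genes for mitochondrial proteins, 2.53 ± 0.355 against 2.08 ± 0.176 FPKM.

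Nuclear-encoded respiratory chain subunits resembled the mitochondrial ribosomal proteins in these counts, with 59 of 80 higher, a median of 0.049 and 7 higher at an unadjusted p under 0.05 (8.75%, against 9.1% of all genes). Their median was -0.006 after the GC and length trend was removed. Ndufa2 (complex I) read 61.7 ± 3.16 against 71.9 ± 6.92 FPKM, and Uqcrq (complex III) 32.1 ± 1.03 against 35.8 ± 2.08 FPKM. The mRNAs for the 13 proteins that mitochondrial ribosomes make were higher in 8 (median 0.029), and protein levels were not measured. Among them mt-Co1 read 4960 ± 269 against 5200 ± 388 FPKM and mt-Co3 2040 ± 168 against 2180 ± 233 FPKM. Cytosolic ribosomal proteins were higher in 79 of 81, with a median of 0.117 and 32 higher at an unadjusted p under 0.05 (39.5%, against 9.1%). With the GC and length trend removed, 71 of 81 were higher and 18 were called (22.2%, against 5.06%). The smallest p-values of that list belonged to Rps19, at 15.9 ± 0.996 in controls and 19.6 ± 1.96 FPKM with the knockdown, and Rpl41, at 104 ± 2.12 and 119 ± 8.10 FPKM. The libraries differed in order between these groups. Knockdown replicate 3 had a cytosolic ribosomal protein level near that of knockdown replicate 4 (mean log2 deviations 0.129 and 0.151), but for mitochondrial ribosomal proteins it was at 0.004 against 0.087. Knockdown replicate 1 did not share the rise of the cytosolic ribosomal proteins. It was at -0.064, below control replicates 1 (-0.034) and 3 (-0.035), with 8 of 81 genes above their own mean.

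**Figure D5:**
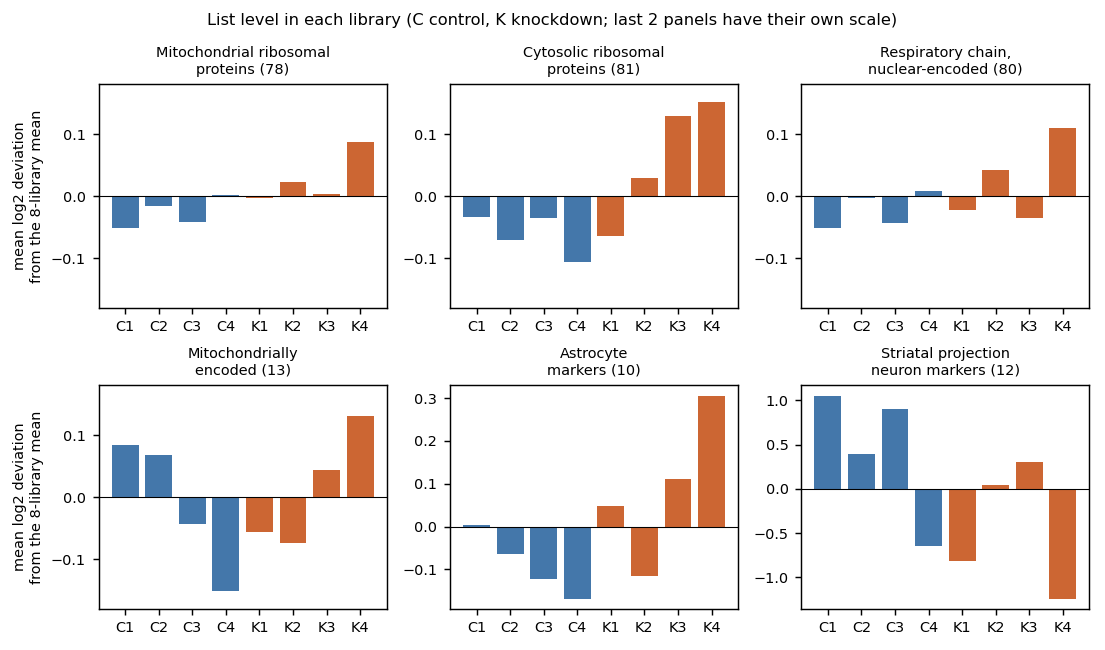
Mean log2 deviation of each gene list from its mean over the 8 libraries (vertical axis, log2(FPKM + 1), number of genes in brackets), per control (C1 to C4) and knockdown (K1 to K4) library. Mitochondrial ribosomal proteins run from -0.052 to 0.087, and the striatal markers, on their own scale, from -1.239 to 1.053.

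Cell type markers also moved between libraries. Astrocyte markers were higher in 9 of 10 genes, with sums of 427.1, 432.6, 382.7 and 397.0 FPKM in the controls and 439.7, 400.0, 452.8 and 491.6 FPKM in the knockdown libraries. Oligodendrocyte markers were higher in 0 of 10, with sums between 835.6 and 1051 FPKM in the controls and between 568.8 and 1129 FPKM in the knockdown group. Neuronal markers were higher in 4 of 10, microglial in 7 of 10, endothelial in 5 of 10 and striatal in 0 of 12. Knockdown replicate 4 had the highest astrocyte sum, the lowest oligodendrocyte and striatal sums and the highest sum of mitochondrial ribosomal proteins. Apart from the striatal covariate, the part of these markers in the differences was not tested.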

How the data were processed

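Total RNA of 8 libraries was sequenced with a stranded kit, per the labels' protocols. The authors deposited FPKM per gene and per transcript, as the file headers name them, and the submitters' processing notes list HISAT2, StringTie, FastQC and cutadapt. The sources used here do not name a build or annotation. Of the 78 members, 70 matched GENCODE M21 (GRCm38) by identifier and version, all with equal coordinates, and coordinates are printed for such genes. FPKM carries no read counts, so depth is unknown and no counting interval is given.

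Tests used log2(FPKM + 1), which understates the fold of low genes. Rows with a mean of at least 0.5 FPKM were tested, knockdown against control, with limma 3.58.1 in R 4.3.3 (trend and robust settings, two-sided, all rows, no block). The threshold was a Benjamini-Hochberg adjusted p under 0.05. A single value was also tested by exact permutation over 70 labelings, whose smallest p is 0.0286. The script was tested on simulated data. Counts of members are set beside the same counts over all rows, without a test of the list.

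The members, lists, tests and the rule for named genes were chosen with earlier results of these data known. Values in every library are given for the 8 members with the smallest p among those higher and the 4 among those lower, the 3 highest and 3 lowest by mean FPKM, members whose groups do not overlap, Homer1, and values for the 2 genes with the smallest p per pathway list. Other genes were chosen after their values were seen. Alternatives covered the pseudocount, filter, rescaling, quantile normalization, limma settings, library weights, a replicate block, transcript-based gene values, a GC and length trend, a striatal covariate and each library left out. The length-weighted transcript value was added after seeing the data.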

Additional observations from a re-analysis of the deposited data

Results flagged for a closer look

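In 10 of 156 groups of 4 libraries (78 genes, 2 groups each), 1 library lay further from the others than Dixon's test at 95% allows, where chance gives about 1 in 20. Knockdown replicate 4 stood above the rest in Mrps6 (21.7 FPKM, others 16.5 to 16.7) and in Mrpl28 (27.3, others 20.8 to 21.5). Knockdown replicate 3 stood above them in Mrps18c (16.1, others 13.8 to 13.9). Knockdown replicate 2 stood below them in Mrps10 (2.39, others 2.57 to 2.59) and in Mrpl1 (3.46, others 3.84 to 3.92). Among the controls, replicate 4 was high in Mrps25 (5.22, others 4.74 to 4.81) and Mrps23 (8.63, others 8.02 to 8.07). Control replicate 2 was high in Mrpl45 (12.7, others 12.1) and Mrpl1 (4.03, others 3.74 to 3.79), and control replicate 3 low in Mrpl35 (6.63, others 6.95 to 7.0). Mrpl1, a large-subunit protein of the L1 stalk, was the gene in which both groups had such a library.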

How the results depend on the processing

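Over 21 alternatives the median log2 difference of the members ran from 0.013 to 0.073 and the number higher from 48 to 62, and members past the threshold stayed at 0. Genes past the threshold numbered 0 to 2 with each library left out (1 without control replicate 1, control replicate 2 or knockdown replicate 3, and 2 without knockdown replicate 4). Members higher at an unadjusted p under 0.05, 8 as reported, were 4 with the striatal covariate and 1 with the GC and length trend removed, with or without the block. With libraries left out they ran from 4 (control replicate 1) to 12 (knockdown replicate 3), with 5 without control replicate 2. Members lower, 0 as reported, were 2 with median-of-ratios rescaling, the striatal covariate and the GC and length fits, 1 with quantile normalization or array weights, and 0 to 2 with libraries left out. Mrpl14 was past an unadjusted p of 0.05 in 21 of the 22 fits. The exception was the replicate block with the GC and length trend removed, where the member higher was Mrps6 (0.17). Signs turned for Mrpl15 (0.0193 in both GC and length fits), Mrps21 (-0.0286 in both, and -0.0127 without control replicate 4, in a range up to 0.078 with libraries left out) and Mrpl38 (-0.018 as a transcript sum, -0.0133 length-weighted). The cause was not tested, except that the Mrpl38 alternatives leave out its unlisted part. Same-numbered libraries did not deviate together (correlations -0.185, -0.0723, 0.2 and -0.0174). With the replicate block, 9 members were higher (Mrpl36, Mrpl58 and Mrps24 added, Mrpl41 and Mrps26 lost) and 0 lower at an unadjusted p under 0.05, and 0 genes passed. In the remaining settings the members higher at an unadjusted p under 0.05 numbered 7 to 9: array weights added Mrps16, rescaling lost Mrps26, the length-weighted value lost Mrpl38, and the transcript sum lost Mrpl38 and Mrps26 and added Mrps34. Depth is unknown, so its limit on low genes could not be given.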
